A study of Mus musculus with 16 samples.

Results

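The 4 genes described here are Scgb1a1, Scgb3a2 and Scgb3a1, the secretoglobins expressed in the airway, and Cyp2f2, a cytochrome P450 of club cells. They were listed by symbol, out of 53647 genes in the table, and all 4 passed the filter on low values that left 17003 genes for testing. They are Scgb1a1 (ENSMUSG00000024653, chromosome 19, minus strand), Scgb3a2 (ENSMUSG00000038791, chromosome 18, plus strand), Scgb3a1 (ENSMUSG00000064057, chromosome 11, plus strand) and Cyp2f2 (ENSMUSG00000052974, chromosome 7, plus strand). The rule also sets apart 3 of the 16 libraries, those in which Scgb1a1 lay under 1000 TPM, an abundance that allows for transcript length and adds up to the same total in each library. Because Scgb1a1 levels chose these 3 libraries, they are given below as a description and not as a finding.

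The data are RNA-seq of mouse lung in 4 groups of 4 libraries, with 2 libraries of every group in each of 2 batches. The groups were lungs given bleomycin and an adenovirus named for ATP12A (Ad-ATP12A), lungs given bleomycin and an adenovirus carrying GFP (Ad-GFP), lungs given bleomycin with no vector named, and lungs labelled control with no treatment or vehicle named. Bleomycin injures the lung and serves as a mouse model of pulmonary fibrosis, and ATP12A is the alpha subunit of a proton pump. The labels give no strain, age, sex, dose, route, day of collection or vector promoter. They do not say whether the replicates of a group were separate animals, so p-values measure the spread between libraries, which may be partly technical. In every group, replicates of the same batch differed in Xist, as given below, so not all replicates of a group came from the same animal. A library is named by its group, batch and replicate, so that control b2r1 is replicate 1 of the controls in batch 2.

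Secretoglobins are small secreted proteins of mucosal surfaces, and club cells are the domed secretory cells that line the mouse bronchioles. Club cells release Scgb1a1, also called uteroglobin or club cell secretory protein, in large amounts, and serve as progenitors that can renew the airway lining. They are also the main site of drug and toxin metabolism in the mouse airway, where Cyp2f2 activates naphthalene into a product that kills the cell. Scgb3a2 is a secretoglobin turned on early in airway development and regulated by the lung transcription factor NKX2-1, while Scgb3a1 is more abundant in the larger airways.

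Not all members moved together across libraries. The promoters below are given as background only, and their part in this was not tested. Of the 4 members, 2 matched the RefSeq promoter table, whose build is GRCm38.p6, whereas the files were made on GRCm39. The Cyp2f2 promoter lies on the plus strand at chr7:27119705-27119954 and that of Scgb3a1 on the plus strand at chr11:49663345-49663594, each being the 250 bases before the annotated start. Capitals mark CAAGTG, letters read by NKX2-1, and TGTTTNC, letters read by forkhead factors such as FOXA1 and FOXA2, searched on both strands.
Cyp2f2: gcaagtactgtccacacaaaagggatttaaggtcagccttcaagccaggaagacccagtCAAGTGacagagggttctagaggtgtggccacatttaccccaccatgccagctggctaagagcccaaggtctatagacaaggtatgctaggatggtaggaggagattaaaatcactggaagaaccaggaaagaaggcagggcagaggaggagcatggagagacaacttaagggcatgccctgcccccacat
Scgb3a1: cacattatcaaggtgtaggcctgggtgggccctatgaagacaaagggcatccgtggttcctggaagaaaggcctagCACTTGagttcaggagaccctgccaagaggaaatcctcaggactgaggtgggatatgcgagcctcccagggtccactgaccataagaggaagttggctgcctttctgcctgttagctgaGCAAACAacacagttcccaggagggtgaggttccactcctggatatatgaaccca
CAAGTG stands on the plus strand of the Cyp2f2 promoter, 191 bases before the start, and on the minus strand of the Scgb3a1 promoter, 174 bases before the start. TGTTTNC stands on the minus strand of the Scgb3a1 promoter, 55 bases before the start. Over 32851 promoters of the same length, 11.6% hold CAAGTG and 17.8% hold TGTTTNC. TTNNGNAA, letters read by C/EBP factors, is in neither window and in 36.8% of all promoters. A match is a run of letters, not a bound site.

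Between 15537 and 16336 genes reached 1 TPM in a library, and sequencing depth is unknown because TPM keeps no read counts. Atp12a measured 2.96 to 29.02 TPM in Ad-ATP12A lungs, against 0 to 0.05 TPM in Ad-GFP lungs. Xist, the RNA of the inactive X chromosome, reached 10 TPM in 6 libraries. In Ad-ATP12A lungs these were b1r1 (157 TPM), b1r2 (130 TPM) and b2r2 (74.4 TPM), but not b2r1 (0.07 TPM). Elsewhere they were Ad-GFP b1r1 (167 TPM), bleomycin b2r1 (144 TPM) and control b1r1 (118 TPM). The other replicates of those batches were Ad-GFP b1r2 (0.24 TPM), bleomycin b2r2 (0.14 TPM) and control b1r2 (0.14 TPM). Of the libraries low in Scgb1a1, only Ad-GFP b1r1 was among the 6, as bleomycin b2r2 and control b2r1 (0.49 TPM) were not. Markers of club cells were present in every library: the summed TPM of 22 other club cell genes lay between 3985 and 13431.

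Scgb1a1 was the most abundant or second most abundant transcript of the lung in 13 libraries and a minor one in 3. Its levels were 61330, 42012, 39054 and 26780 TPM in Ad-ATP12A lungs (b1r1, b1r2, b2r1 and b2r2, the order used throughout). Ad-GFP lungs held 295, 24870, 32306 and 33343 TPM, and bleomycin lungs 44458, 72054, 32535 and 128 TPM. Control lungs held 105447, 102724, 441 and 122337 TPM. The low libraries were thus Ad-GFP b1r1, bleomycin b2r2 and control b2r1, 1 from each group but Ad-ATP12A, and they came from both batches.

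The threshold of 1000 TPM lay in a wide gap, since the highest library below it had 441 TPM and the lowest above it had 24870 TPM. Within its own group, Scgb1a1 was 84.2-fold lower in Ad-GFP b1r1 than in the lowest of the other 3 libraries, 255-fold lower in bleomycin b2r2 and 233-fold lower in control b2r1. Its rank among all genes by TPM was 389, 1096 and 275 in these libraries, against 1 or 2 in each of the remaining 13. Scgb1a1 took 2.49% to 12.2% of the TPM of those 13 libraries, so its level alone moves the share left for all other genes.

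Scgb3a2 was not low where Scgb1a1 was low. It measured 1537, 3416, 1202 and 1771 TPM in Ad-ATP12A lungs and 11745, 2661, 2791 and 866 TPM in Ad-GFP lungs. Bleomycin lungs held 3039, 1451, 2857 and 4009 TPM, and control lungs 2243, 1841, 7861 and 2087 TPM. In all 3 groups that had a library low in Scgb1a1, that library was the one with the most Scgb3a2. Over all genes tested, Ad-GFP b1r1 was highest of its group for 23.2%, bleomycin b2r2 for 41.5% and control b2r1 for 48.9%. The top place of Scgb3a2 is therefore not read as a result by itself. Scgb3a2 exceeded the highest of the other 3 libraries of its group 4.21-fold in Ad-GFP b1r1, 1.32-fold in bleomycin b2r2 and 3.51-fold in control b2r1. With TPM rescaled after leaving out the 4 members, these ratios were 4.12, 1.26 and 3.16.

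The order of these secretoglobins was therefore turned round. Scgb3a2 exceeded Scgb1a1 between 17.8-fold and 39.8-fold in the 3 libraries, whereas Scgb1a1 exceeded Scgb3a2 between 9.35-fold and 58.6-fold in the other 13. The 3 libraries held less secretoglobin RNA in sum, with 4288 to 12605 TPM over Scgb1a1, Scgb3a2 and Scgb3a1, against 28076 to 124522 TPM in the other 13. Both the turned order and the lower sum follow largely from choosing the 3 libraries on Scgb1a1, so neither is a separate finding.

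Cyp2f2, the naphthalene-activating enzyme, also stayed abundant where Scgb1a1 was low. Ad-ATP12A lungs held 1060, 1229, 383 and 648 TPM, and Ad-GFP lungs 2299, 624, 1318 and 498 TPM. Bleomycin lungs held 1048, 1084, 1545 and 816 TPM, and control lungs 2051, 1879, 2972 and 2404 TPM. The highest Cyp2f2 of the Ad-GFP and of the control group stood in the library low in Scgb1a1, and the lowest of the bleomycin group did. The ratio of Scgb1a1 to Cyp2f2 was 0.128 to 0.156 in the 3 libraries and 21.1 to 102 in the other 13. This gap too follows largely from the choice on Scgb1a1. The rank of Cyp2f2 by TPM was 40 in Ad-GFP b1r1, 145 in bleomycin b2r2 and 31 in control b2r1.

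Scgb3a1, the secretoglobin of the larger airways, was the least abundant member in all libraries but Ad-GFP b1r1 and bleomycin b2r2, where Scgb1a1 was. It measured 864, 582, 256 and 374 TPM in Ad-ATP12A lungs and 565, 545, 138 and 240 TPM in Ad-GFP lungs. Bleomycin lungs held 211, 184, 237 and 151 TPM, and control lungs 254, 285, 196 and 97.3 TPM. Among the 3 libraries low in Scgb1a1 it was the highest of its group in Ad-GFP b1r1, the lowest in bleomycin b2r2 and in between in control b2r1. The highest libraries were those of batch 1 that had received a vector.

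**Figure D1:**
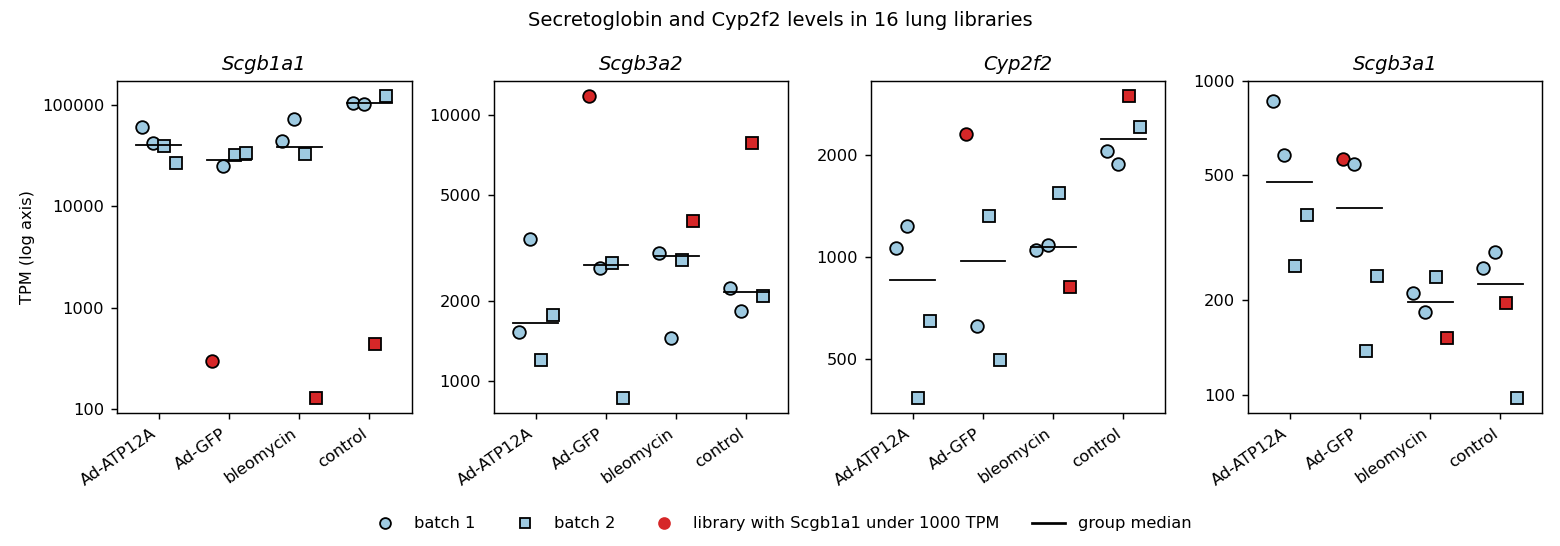
TPM of each member on a log axis in the 4 groups; each point is 1 library (circles batch 1, squares batch 2), red points are the 3 libraries with Scgb1a1 under 1000 TPM, and the line is the group median. The red points lie at 128 to 441 TPM for Scgb1a1 and at 4009 to 11745 TPM for Scgb3a2, the top of the 3 groups that hold one. Over all genes tested, these libraries were the highest of their group for 23.2% to 48.9%.

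The other genes of the airway did not share one pattern in the 3 libraries. In Ad-GFP b1r1, 17 of 22 other club cell genes and 16 of 16 ciliated cell genes were at the highest level of the group, and none of either list was at the lowest. In control b2r1, 17 of the 22 club cell genes were highest and 1 lowest, while 0 of 16 ciliated genes were highest and 7 lowest. In bleomycin b2r2, by contrast, 14 of the 22 club cell genes and 14 of the 16 ciliated genes were the lowest of the group. Over all 17003 genes, Ad-GFP b1r1 was highest of its group for 23.2%, control b2r1 for 48.9% and bleomycin b2r2 for 41.5%, and lowest for 31.5%, 12.2% and 15.5% in the same order.

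These shifts are given beside those of Scgb1a1, whose size in the 3 libraries was fixed by the choice on its own level. No contrast with Scgb1a1 is therefore read from them. Relative to the median of the other 3 libraries of the group, Scgb1a1 differed by -6.77, -8.43 and -7.90 in log2(TPM + 1) in Ad-GFP b1r1, bleomycin b2r2 and control b2r1. The median difference over the 22 other club cell genes was 0.87, -0.28 and 0.41 in the same libraries. Over 18 regulators of secretory cells, such as Nkx2-1 and Foxa2, it was 0.51, -0.06 and 0.21. Other tissue in the sample also varied: the median over 9 cardiac muscle genes differed by 1.36, 0.97 and -1.05, and that over 8 lymphoid genes by 0.21, 1.05 and 0.08. The summed TPM of the 9 cardiac genes was 652 in Ad-GFP b1r1, 202 in bleomycin b2r2 and 306 in control b2r1, against 74.5 to 643 over the other 13. The part of other tissue in the members' levels was not tested.

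**Figure D2:**
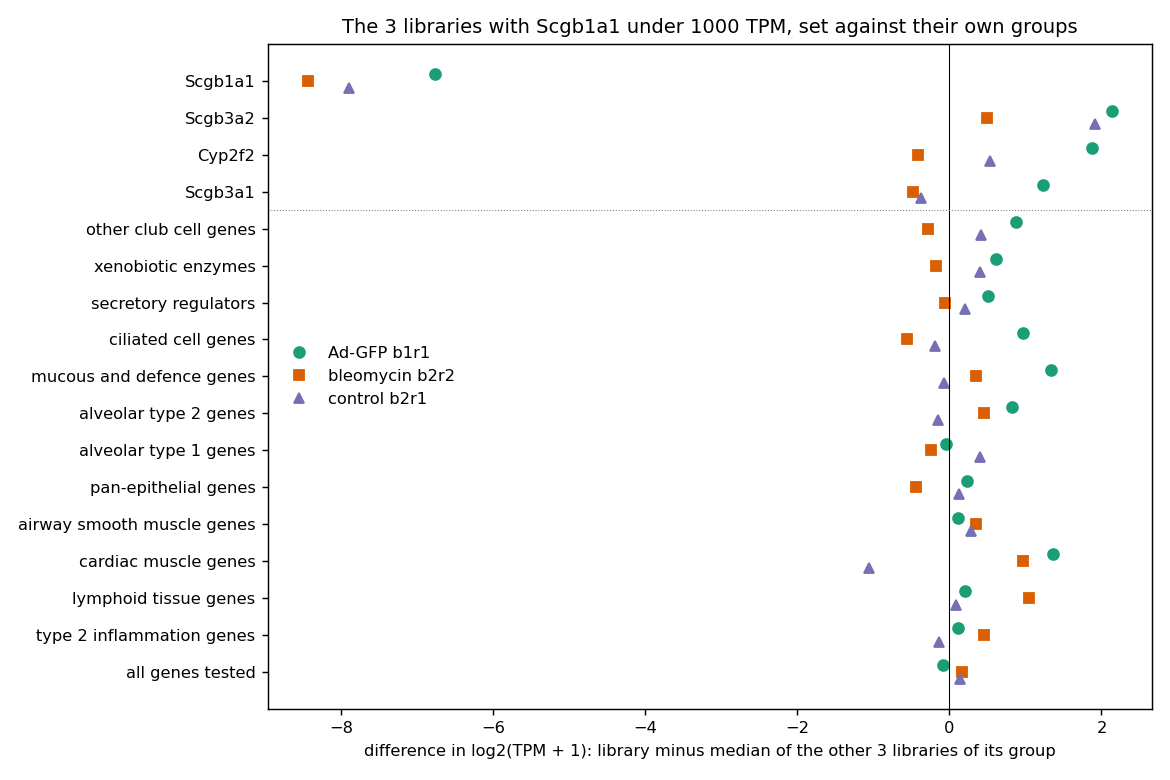
Difference in log2(TPM + 1) between each library low in Scgb1a1 and the median of the other 3 libraries of its group, for the 4 members, for the median gene of each list and for all genes tested; markers stand for the 3 libraries. Scgb1a1, on which the 3 libraries were chosen, lies between -8.43 and -6.77, and Scgb3a2 lies between 0.49 and 2.14.

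Beside Scgb1a1 on chromosome 19, 21 genes within 250 kb were tested, 18 of them protein coding, by the GENCODE annotation of the earlier build GRCm38. Ahnak, the nearest tested gene, which encodes a giant scaffold protein, measured 178, 218 and 376 TPM in Ad-GFP b1r1, bleomycin b2r2 and control b2r1, against 139 to 285 TPM in the other 13. Asrgl1, an asparaginase and the next nearest, measured 5.20, 5.50 and 7.27 TPM, against 4.02 to 8.38 TPM. Of the 21 genes, 14 had all 3 libraries within the range of the other 13, and 7 had at least 1 of them outside it, Ahnak among these. This window was chosen after the values were seen.

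Likeness was measured as the root mean square difference between profiles of log2(TPM + 1), each centred on its own median over the 16 libraries, with predicted models and unnamed identifiers left aside. For Scgb1a1 this distance is set largely by the 3 libraries that were chosen on its own level, so it is not compared with that of the other members. The nearest gene to Scgb1a1, Snora73b, a small nucleolar RNA, lay 2.78 away, and the next 9 (Igkv1-135, Abhd17c, Mid1, Apoo-ps, Trbv17, Supt4b, Ighg2c, Plac9a and Ighv5-12) lay between 2.93 and 3.02 away. Several of these share sequence with near-identical copies, so their own values are uncertain. Over the 13 libraries their Pearson's r with Scgb1a1 ran from -0.735 (Abhd17c) to 0.379 (Igkv1-135), so nearness here does not mean a shared profile. Scgb3a2 lay 3.93 away and Cyp2f2 3.44 away.

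The gene nearest to Cyp2f2, Mettl7a1, a methyltransferase-like gene, lay 0.25 away, with Pearson's r = 0.95 over the 16 libraries and 0.97 over the 13. Slc4a5, a sodium bicarbonate cotransporter, lay 0.26 away, Ces1d, a carboxylesterase, 0.28, Cbr2, a carbonyl reductase and club cell marker, 0.29, and Adrb3, an adrenergic receptor, 0.32. Cbr2 was abundant, at 5120 TPM in Ad-GFP b1r1 and 6746 TPM in control b2r1, the top of both groups, and at 1523 TPM in bleomycin b2r2. The points of these profiles share libraries, groups and batches, so the r values only describe them.

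**Figure D3:**
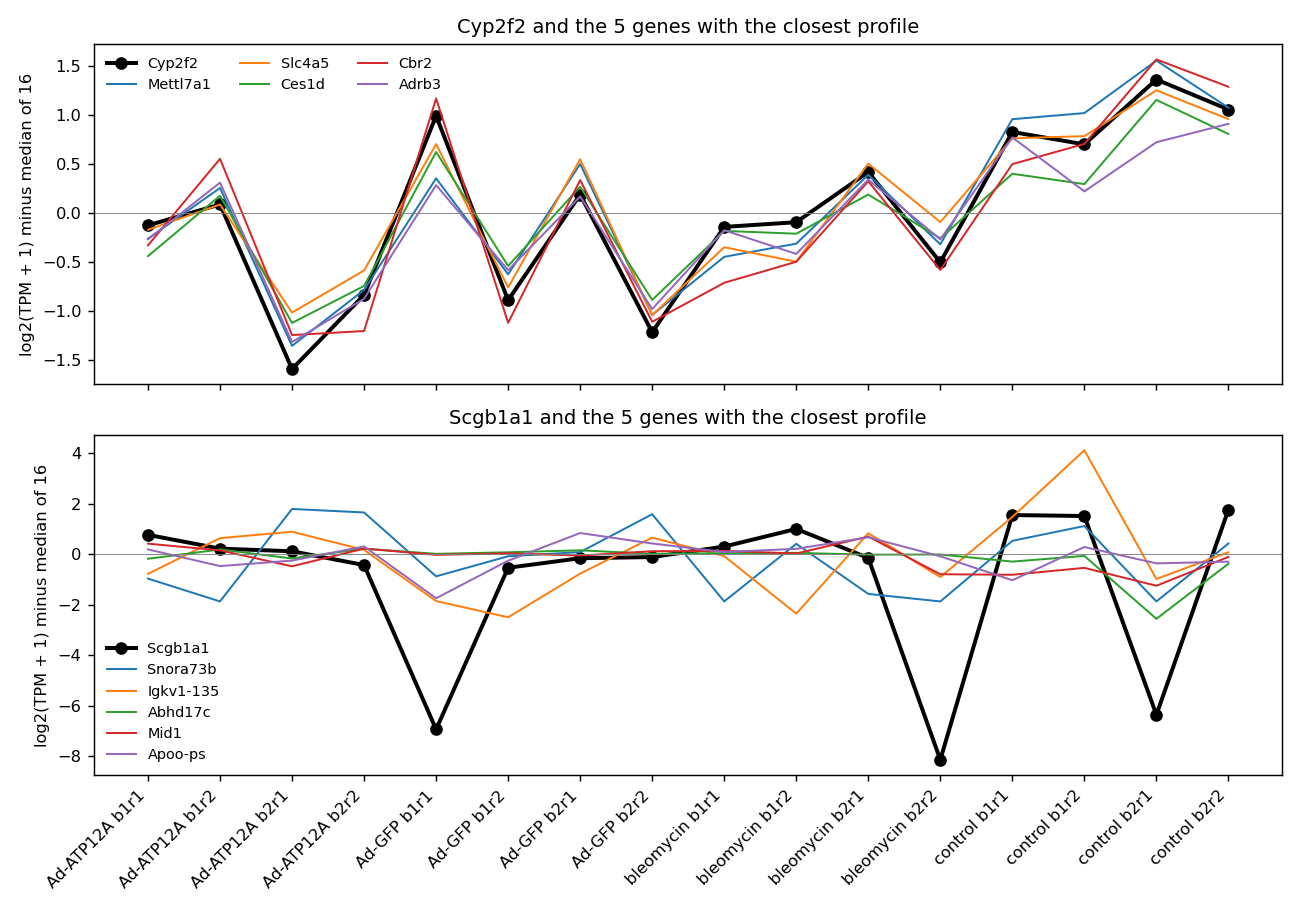
Log2(TPM + 1) minus its median over 16 libraries for Cyp2f2 (top) and Scgb1a1 (bottom), each with the 5 nearest genes, libraries along the horizontal axis. The companions of Cyp2f2 follow it within 0.32 on average (root mean square); the Scgb1a1 profile has 3 troughs, at the libraries chosen on its level, and its nearest gene is 2.78 away.

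Nearest to Scgb3a2 were Ldhb, a lactate dehydrogenase subunit (0.57), Wfdc2, a secreted airway protein (0.59), Pnliprp1, a lipase-related protein (0.59), Atad3aos (0.62) and Itih2, a hyaluronan-binding plasma protein (0.66). Wfdc2 measured 2350 TPM in Ad-GFP b1r1 and 1712 TPM in control b2r1, the highest of their groups, and 808 TPM in bleomycin b2r2, the lowest of its group. Nearest to Scgb3a1 were Fam3b, a secreted cytokine-like protein (0.56), the pseudogene Rpl36a-ps1 (0.58), Bpifb1, a secreted airway defence protein (0.58), Scin, an actin-severing protein (0.58), and Ifitm1 (0.60). Several are low: Fam3b, Rpl36a-ps1 and Scin reached at most 2.86, 2.47 and 2.77 TPM, and Pnliprp1 and Atad3aos 3.66 and 6.84 TPM. At such levels the pseudocount of 1 narrows a profile. Pearson's r of the 5 genes with Scgb3a2 was 0.751 to 0.874 over the 16 libraries and 0.39 to 0.696 over the 13. With Scgb3a1 it was 0.708 to 0.848 and 0.668 to 0.86. Atad3aos is an antisense gene and the strand setting is not given in the sources used here, so its reads cannot be told from those of its partner. Between members, Scgb3a2 and Cyp2f2 lay 0.78 apart (r = 0.52 over the 13 libraries), and Scgb1a1 and Cyp2f2 had r = 0.71 over the 13.

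The families of these genes were mostly silent in the lung. Of 66 other secretoglobin genes and pseudogenes in the table, 65 stayed under 1 TPM in every library, the highest value being 0.49 TPM. The exception, Scgb1c1, ranged from 3.17 to 59.47 TPM, with 44.36 TPM in Ad-GFP b1r1 and 59.47 TPM in control b2r1, the highest of their groups, and 15.51 TPM in bleomycin b2r2. Of 15 Cyp2a, Cyp2b, Cyp2g, Cyp2s and Cyp2t genes, 12 stayed under 1 TPM. Those tested were Cyp2a5 (13.45 to 103 TPM), Cyp2b10 (87.8 to 337 TPM) and Cyp2s1 (42.62 to 123 TPM), all P450 enzymes of foreign compounds. Near-identical copies within both families could share reads.

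Bleomycin and control lungs differ in their labels by bleomycin. Cyp2f2 averaged 1123 ± 305 TPM in bleomycin lungs and 2327 ± 482 TPM in control lungs (SD, n = 4 each), and all 4 bleomycin libraries lay below all 4 controls. Such a separation with bleomycin lower was found for 6.92% of all genes tested, and one in either direction for 23.4%. In the limma fit across all genes the log2 fold change was -1.07 (SE 0.434, adjusted p = 0.101), which did not pass the threshold of 0.05. An exact permutation test of the 8 libraries alone gave two-sided p = 0.0286, the smallest value that 70 relabellings allow. The call depended on the fit: adjusted p was 0.00984 with the 8 libraries fitted alone and 0.0498 with array weights, and between 0.00984 and 0.261 over 26 alternatives. In bulk tissue, fewer cells of a type and less RNA per cell cannot be told apart.

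None of the other members passed in this comparison, in which 18.8% of genes did, 13.2% as higher and 5.61% as lower in bleomycin lungs. Over the 13 libraries 8.73% of genes passed, 7.23% as higher and 1.5% as lower. Scgb1a1 averaged 37294 ± 29797 TPM in bleomycin lungs and 82737 ± 55546 TPM in control lungs, with a log2 fold change of -1.36 (SE 2.15, adjusted p = 0.695), and the two-sided exact permutation test gave p = 0.457. The SE is pooled over all 4 groups, and without the 3 libraries the fold change was -1.22 with an SE of 0.41. The 3 remaining bleomycin libraries lay at 32535 to 72054 TPM and the 3 remaining controls at 102724 to 122337 TPM. Nothing is read from this, since the libraries left out were chosen on Scgb1a1 itself.

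Scgb3a2 averaged 2839 ± 1054 TPM in bleomycin lungs and 3508 ± 2907 TPM in control lungs (-0.11 in log2, SE 0.667, adjusted p = 0.934, and 0.914 in the exact permutation test). Scgb3a1 averaged 196 ± 36.8 TPM in bleomycin lungs and 208 ± 82.4 TPM in control lungs (0.003 in log2, SE 0.314, adjusted p = 0.997, and 0.971 in the exact permutation test). The groups of both genes overlapped, and both values are within 1 SE of 0. Without the 3 libraries the fold changes were 0.18 for Scgb3a2, 0.13 for Scgb3a1 and -0.80 for Cyp2f2. Within batch 1 the fold changes of Scgb1a1, Scgb3a2, Cyp2f2 and Scgb3a1 were -0.88, 0.05, -0.88 and -0.45, and within batch 2 they were -1.85, -0.26, -1.25 and 0.45. No difference between batches passed in any comparison of a member (limma interaction, adjusted p from 0.366 to 0.998).

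Other club cell genes were lower in bleomycin lungs. Of 22, 7 fell and 0 rose, where 5.61% of all genes tested fell and 13.2% rose. The median log2 fold change was -0.79, against 0.05 over all genes tested. All 7 are enzymes or enzyme partners of foreign compounds. Sult1d1, a sulfotransferase, fell to 6.78 ± 1.60 TPM in bleomycin lungs, against 17.1 ± 3.67 TPM in control lungs (log2 fold change -1.22, SE 0.239, adjusted p = 0.00452 in limma). Cyp4b1, a P450 enzyme, fell to 144 ± 38.4 TPM, against 411 ± 68.6 TPM (-1.52, SE 0.320, adjusted p = 0.00623). Gsta3, a glutathione transferase, fell as well (-1.36, adjusted p = 0.00769). Without the 3 libraries 2 of 21 fell and 1 rose, Hp, the haemoglobin-binding protein haptoglobin, against 1.5% and 7.23% of all genes. Cyp4b1 (adjusted p = 0.0512 in limma) and Gsta3 (0.053) were then past the threshold no longer. The summed TPM of the list was 5009 to 7351 in bleomycin lungs and 8267 to 13431 in control lungs.

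Enzymes of foreign compounds, a list of 24 tested genes, showed 12 lower and 0 higher. The shares over all genes were 5.61% and 13.2%, and the median of the list was -0.82. The 7 club cell genes that fell are all among these 12, so the lists are not separate evidence. Fmo2, a flavin monooxygenase of lung, fell to 201 ± 70.4 TPM in bleomycin lungs, against 591 ± 163 TPM in control lungs (log2 fold change -1.56, adjusted p = 0.00131 in limma). Fmo1 fell by 1.24 on the log2 scale (adjusted p = 0.00455). Leaving out the 3 libraries, 4 of 24 fell, against 1.5% of all genes, among them Fmo2 (adjusted p = 0.0157) and Fmo1 (0.0458). The family members Cyp2a5 (-1.19, adjusted p = 0.0708) and Cyp2s1 (-0.51, adjusted p = 0.186) did not pass, and neither did Scgb1c1 (-1.12, adjusted p = 0.161), whereas Cyp2b10 fell by 0.86 (adjusted p = 0.0367, and 0.204 without the 3 libraries). Mettl7a1, the gene with the profile nearest to Cyp2f2, fell by 1.32 (adjusted p = 0.0244 in limma, and 0.124 without the 3 libraries).

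Of 18 regulators of secretory cells, Cebpb, a C/EBP factor, rose by 0.56 (adjusted p = 0.0337 in limma) and Foxa1, a forkhead factor, fell by 0.74 (adjusted p = 0.0352). Over all genes 13.2% rose and 5.61% fell, so 1 of 18 each way is not read as a result about the list. Nkx2-1, the factor that drives secretoglobin genes, had a log2 fold change of -0.27 (adjusted p = 0.513). Over the 13 libraries neither Cebpb (adjusted p = 0.068) nor Foxa1 (0.0991) passed, and leaving out single libraries ended the call of Foxa1 in 7 cases, every control and every bleomycin library but b2r1 among them (adjusted p up to 0.109), as did no filter, no batch term and the replicate block. The call of Cebpb ended without bleomycin b1r1, b1r2 or b2r2 and without control b1r1 or b1r2 (up to 0.107), and with no filter, with median-ratio scaling or with TPM rescaled without the members.

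Counts in the following lists are set beside the 13.2% of all genes that rose and the 5.61% that fell. Lists with 1 or 2 calls are not read as results about the list. Of 16 ciliated cell genes, Tppp3, a tubulin-binding protein, fell by 1.05 (adjusted p = 0.0391 in limma), and the median was -0.34. Its call ended without the 3 libraries (adjusted p = 0.164) and in 6 cases of a single library left out, every one of the 8 but bleomycin b2r1 and control b1r1 (up to 0.113), as well as with no filter or no batch term. Of 12 mucous and defence genes 2 rose: Ltf, lactoferrin, by 1.51 (adjusted p = 0.0141; 0.0572 without bleomycin b1r1) and Agr2, a mucin-folding protein, by 1.26 (adjusted p = 0.0151, a call lost with no batch term). Of 8 pan-epithelial genes 2 rose, the keratins Krt8 by 0.75 (adjusted p = 0.00893) and Krt18 by 0.81 (0.0149, and up to 0.0562 without bleomycin b1r1 or b1r2). None of 12 alveolar type 2 genes passed (median -0.72), and 1 of 10 alveolar type 1 genes fell, Hopx, by 0.71 (adjusted p = 0.00885; 0.0805 without the 3 libraries, where Pdpn, podoplanin, rose instead).

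Markers of other cells that a lung sample can hold are read against the 13.2% of all genes that rose and the 5.61% that fell. Of 3 neuroendocrine genes tested 1 rose (median 0.17), and of 10 genes of type 2 inflammation 1 rose (median -0.04). Of 8 lymphoid genes 2 rose, the chemokines Ccl21a by 0.98 (adjusted p = 0.00334 in limma) and Cxcl13 by 1.53 (0.0192, and 0.110 without the 3 libraries), but 6 of the 8 had a fold change below 0 and the median was -0.76. The call of Cxcl13 also ended without bleomycin b1r1, bleomycin b2r2 or control b1r1 (up to 0.0719).

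Of 9 airway smooth muscle genes 1 fell, Myh11, a smooth muscle myosin, by 0.73 (adjusted p = 0.0486 in limma; list median 0.12), a call lost in 16 of 26 alternatives, among them 11 single libraries left out, the replicate block (0.0746) and no batch term (0.160). Of 9 cardiac muscle genes 1 fell, Ryr2, a calcium release channel, by 0.99 (adjusted p = 0.0338; list median -1.40, all 9 below 0), a call lost in 9 of 25 alternatives, 6 of them single libraries left out. Without the 3 libraries neither list had a gene that passed. Only 1 gene each of the basal cell and airway cartilage lists was tested, and neither passed. The summed TPM of the cardiac list was 92.4 to 420 in bleomycin lungs and 306 to 643 in control lungs, and its part in the lower club cell genes was not tested.

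**Figure D4:**
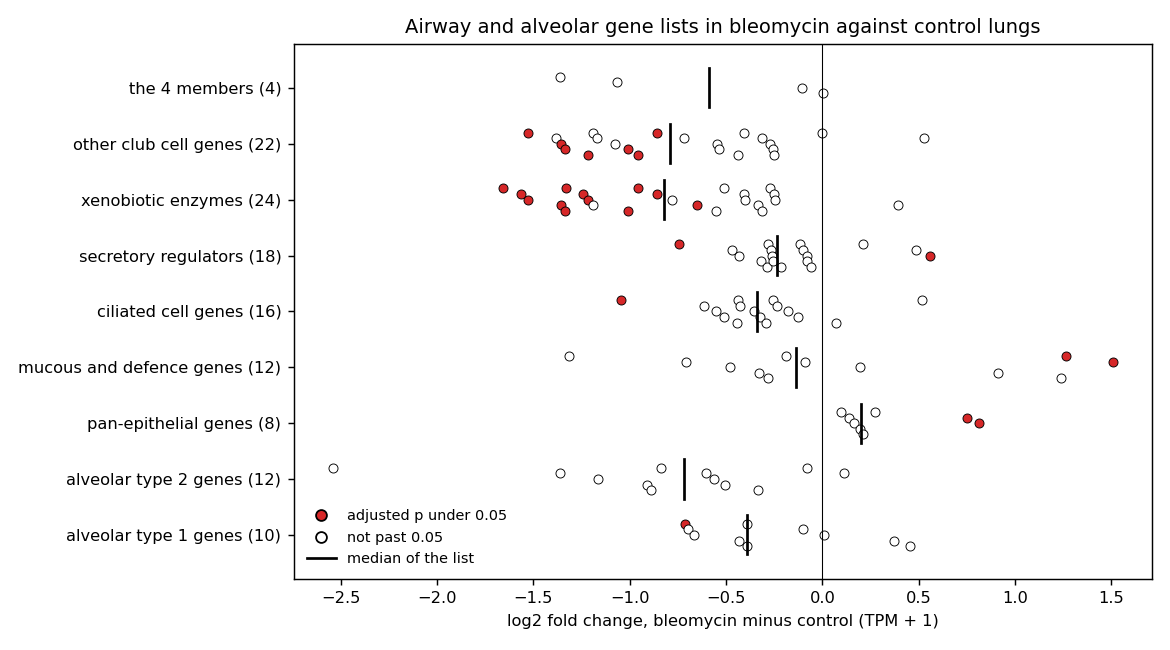
Log2 fold change on the log2(TPM + 1) scale, bleomycin minus control, of every tested gene of 8 lists and the 4 members (number of genes in brackets); red points passed at an adjusted p under 0.05 in limma and the bar is the median. The club cell and enzyme lists lie mostly left of 0, with medians of -0.79 and -0.82, and none of the 4 members is red.

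Ad-GFP against bleomycin asks what the vector added. None of the members passed, in a comparison where 0.0118% of genes did. Scgb3a1 averaged 372 ± 216 TPM in Ad-GFP lungs and 196 ± 36.8 TPM in bleomycin lungs (0.72 in log2, SE 0.314, adjusted p = 0.9998, and 0.257 in the two-sided exact permutation test). The Ad-GFP libraries of batch 1 lay far above all bleomycin libraries, and those of batch 2 lay at 138 and 240 TPM, below and just above the bleomycin range: the fold change was 1.49 within batch 1 and -0.06 within batch 2 (limma interaction, adjusted p = 0.998). For Scgb1a1 it was -0.19 (SE 2.15), for Scgb3a2 0.15 (SE 0.667) and for Cyp2f2 -0.15 (SE 0.434). Within batch 1 these were -4.38, 1.41 and 0.17, and within batch 2 4.003, -1.12 and -0.47. The opposite values of Scgb1a1 each rest on 1 library chosen as low, Ad-GFP b1r1 in batch 1 and bleomycin b2r2 in batch 2. Without the 3 libraries the fold changes of Scgb1a1, Scgb3a2 and Cyp2f2 were -0.57, -0.23 and -0.66, and that of Scgb3a1 was 0.66.

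Ad-ATP12A against Ad-GFP asks what the ATP12A vector did beyond the GFP vector. Again none of the members passed, and 0.00588% of all genes did. Scgb1a1 averaged 42294 ± 14302 TPM in Ad-ATP12A lungs and 22704 ± 15408 TPM in Ad-GFP lungs (2.10 in log2, SE 2.15, adjusted p = 0.999, and 0.114 in the two-sided exact permutation test). That fold change rested on Ad-GFP b1r1: without the 3 libraries it was 0.40 (SE 0.383), with 26780 to 61330 TPM in Ad-ATP12A lungs and 24870 to 33343 TPM in the 3 remaining Ad-GFP lungs. Scgb3a1 averaged 519 ± 266 TPM in Ad-ATP12A lungs and 372 ± 216 TPM in Ad-GFP lungs (0.56, SE 0.314; exact permutation p = 0.343), a difference within the spread of the libraries. The fold changes of Scgb3a2 and Cyp2f2 were -0.69 (SE 0.667) and -0.38 (SE 0.434), and -0.07 and 0.0005 without the 3 libraries. Within batch 1 the values of Scgb1a1, Scgb3a2, Cyp2f2 and Scgb3a1 were 4.22, -1.29, -0.07 and 0.35, and within batch 2 -0.02, -0.09, -0.70 and 0.76. These comparisons share the Ad-GFP libraries with the one before. More Ad-ATP12A than Ad-GFP libraries reached 10 TPM of Xist, and the part of this in the comparison was not tested.

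**Figure D5:**
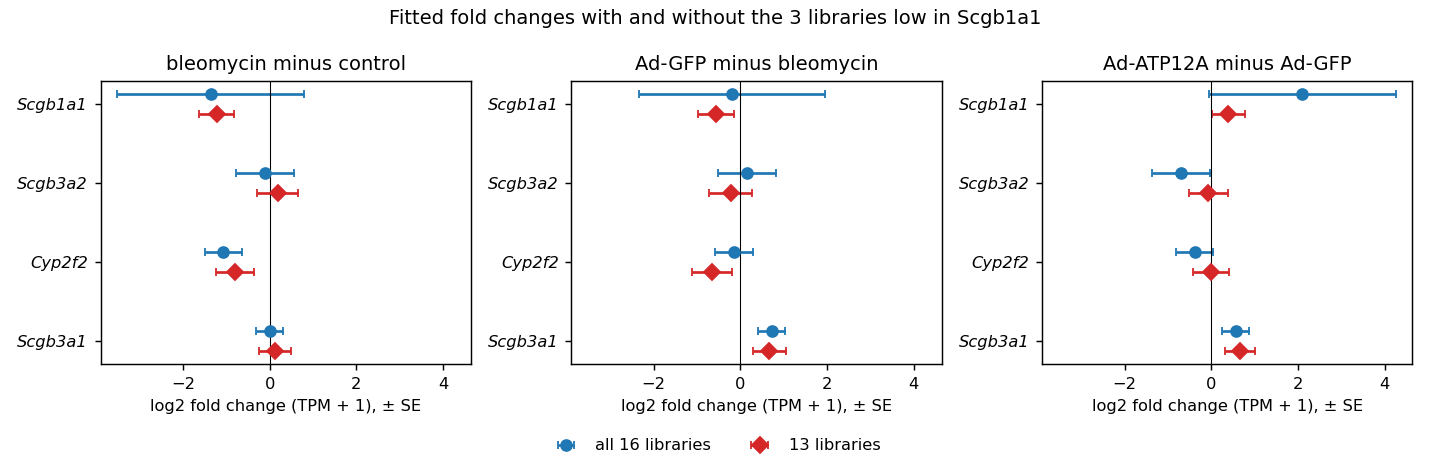
Log2 fold changes on the log2(TPM + 1) scale with their SE for the 4 members in 3 comparisons, from all 16 libraries (circles) and from the 13 with Scgb1a1 above 1000 TPM (diamonds). The SE of Scgb1a1 is 2.15 in all 3 comparisons with 16 libraries and 0.383 to 0.417 with 13.

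In order of group means, Scgb1a1 measured 22704 ± 15408 TPM in Ad-GFP lungs, 37294 ± 29797 in those given bleomycin alone, 42294 ± 14302 in Ad-ATP12A and 82737 ± 55546 TPM in control lungs, with overlap between neighbours. Cyp2f2 ran from 830 ± 385 TPM in Ad-ATP12A lungs through 1123 ± 305 in bleomycin lungs and 1185 ± 826 in those given Ad-GFP to 2327 ± 482 TPM in controls. The ranges of the first 3 groups overlapped. For Scgb3a1 the order was 519 ± 266 TPM in Ad-ATP12A, 372 ± 216 in Ad-GFP, 208 ± 82.4 in control and 196 ± 36.8 TPM in bleomycin lungs, and neighbours in it overlapped. For Scgb3a2 it was 4516 ± 4899 TPM in Ad-GFP, 3508 ± 2907 in control, 2839 ± 1054 in bleomycin and 1981 ± 985 TPM in Ad-ATP12A lungs, again with overlap between neighbours.

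Between batches, Scgb3a1 was the member that differed. It averaged 211 ± 86.3 TPM in the libraries of batch 2 and 436 ± 240 TPM in those of batch 1 (log2 fold change -0.95, SE 0.222, adjusted p = 0.0148 in limma, group as a term). In this contrast 18.5% of all genes passed, and 2.11% of all genes passed as lower in batch 2. The batches overlapped, at 97.3 to 374 TPM in batch 2 and 184 to 864 TPM in batch 1. Without the 3 libraries the fold change was -1.01 and the adjusted p 0.110. Scgb1a1 (-1.42, SE 1.52), Scgb3a2 (-0.20, SE 0.472) and Cyp2f2 (-0.31, SE 0.307) did not pass. Genes of some other epithelial lists were lower in batch 2 as well: 7 of 16 ciliated genes, 2 of 12 mucous genes, Agr2 (-0.92) and Reg3g (-1.02), and 3 of 8 pan-epithelial genes, Elf3 (-0.57), Cldn7 (-0.46) and Krt19 (-0.28). The list medians were -0.54, -0.57 and -0.29. Over the 13 libraries no gene of the 16684 tested passed between batches (3792 at an unadjusted p under 0.05 in limma), and the medians of these 3 lists were -0.37, -0.86 and -0.34. Other lists did not share this: with all 16 libraries, 0 of 22 other club cell genes passed (median -0.11). None of 12 alveolar type 2 or 10 alveolar type 1 genes passed either. Enzymes of foreign compounds had 2 higher and 0 lower, and regulators of secretory cells 2 higher and 2 lower. The part of any cell type in the Scgb3a1 difference was not tested.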

How the data were processed

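Mouse lung RNA was sequenced in 16 libraries. The deposited values are log2 values on a scale read from the data as log2(TPM + 1), since turned back to TPM each library summed to between 999999.12 and 1000000.82. Per the submitters' processing notes, STAR, RSEM and GRCm39 (mm39) were used. The labels' protocol gives an input of 0.6 ug RNA a library. Symbols came from GENCODE M21 (52093 of 53647 identifiers matched). No read counts were used, so depth is unknown and no count model was fitted.

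Genes reaching 1 TPM in 4 or more libraries (17003) were tested with limma 3.58.1 in R 4.3.3 on log2(TPM + 1), with a pseudocount of 1, a trended prior, a mean for each of 4 groups and a batch effect. Its two-sided p-values were adjusted by Benjamini-Hochberg across all genes, with a threshold of 0.05. For single members an exact permutation test over 70 relabellings was added, which ignores batch. Every fold change is a difference of log2(TPM + 1), which understates that of low genes. The fit was tested on simulated data. Figures were drawn with matplotlib 3.10.9.

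The members and the 15 gene lists were chosen with earlier results of these data known. Named genes were the members, their families, their nearest profiles (10 for Scgb1a1 and 5 for each other member) and up to 4 genes per list with the smallest p; Nkx2-1, Foxa2, Cbr2, Wfdc2 values by library, Atp12a, Xist, Ahnak, Asrgl1, Hp and Pdpn were chosen after their values were seen. Of 14 mucous and defence genes Muc4 was not analysed here. A gene that the naming rule selects from the lists is not reported here. The fits were repeated with array weights, the replicate block, no batch term, median-ratio scaling, TPM rescaled without the 4 members, a mean of 5 TPM or nothing as the filter, 0.1 as the pseudocount, the 8 libraries compared alone, 13 libraries, and each library left out in turn.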

Additional observations from a re-analysis of the deposited data

Results flagged for a closer look

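The members and the tested genes of their families, 8 genes in 32 groups of 4 libraries, were searched for a library standing apart in log2(TPM + 1). The criterion was a gap to the nearest of the others above Dixon's critical share of the group's range, both on that scale and not in TPM. Chance alone gives such a gap in about 1 in 20 groups. Of the 4 groups found, 3 are the Scgb1a1 values that chose the 3 libraries and were fixed by that choice, so their number is not set against chance. Scgb1a1 stood apart at 295.36 TPM in Ad-GFP b1r1 (gap 0.938 of the range), at 127.72 TPM in bleomycin b2r2 (0.874) and at 441.01 TPM in control b2r1 (0.969). Scgb3a2 stood apart in the other direction, at 7860.96 TPM in control b2r1 (0.864). This 1 flag among the remaining groups is no more than the share of about 1 in 20 that chance gives, so it is not read as a result. The Scgb3a2 value of 11745 TPM in Ad-GFP b1r1 was the highest of the 16 but did not exceed the criterion.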

How the results depend on the processing

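Of 505 recomputed values of members and counts, 430 were the same. For a member this means the same direction and side of the threshold. For a count of genes passing it means a count within a set ratio of the main one. In bleomycin against control the fold change of Scgb3a1, 0.003, became -0.063 with median-ratio scaling, -0.071 rescaled without the members and -0.27 with array weights, and that of Scgb3a2 became 0.12 with array weights and 0.18 without the 3 libraries. Cyp2f2 passed at -0.90 with array weights and -1.07 with the 8 libraries alone. Genes passing numbered 7613 with array weights and 1456 without the 3 libraries, against 3201. In Ad-GFP against bleomycin Scgb3a2 became -0.23 without the 3 libraries. Genes passing there numbered 1 with a pseudocount of 0.1, a mean of 5 TPM, median-ratio scaling, no batch term or the 8 libraries alone, and 0 with no filter or without the 3 libraries, where limma gave 175 at an unadjusted p under 0.05. In Ad-ATP12A against Ad-GFP Cyp2f2 became 0.0005 without the 3 libraries. Genes passing there numbered 0 with no filter, a mean of 5 TPM, the 8 libraries alone, the replicate block or without the 3 libraries (335 unadjusted). Between batches Scgb3a1 no longer passed at -1.01 without the 3 libraries. Genes passing numbered 1875 with no filter, 1943 with median-ratio scaling, 5018 with array weights and 0 without the 3 libraries (3792 unadjusted). The causes were not tested.

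With each library left out in turn, Scgb1a1 ranged from -3.27 (without control b2r1) to 0.70 (without bleomycin b2r2) in bleomycin against control and from -2.25 (without bleomycin b2r2) to 1.88 (without Ad-GFP b1r1) in Ad-GFP against bleomycin. Scgb3a1 ranged from -0.28 to 0.20 in bleomycin against control. Scgb3a2 ranged from -0.38 to 0.46 in bleomycin against control, from -0.54 to 0.75 in Ad-GFP against bleomycin and from -0.49 to 0.14 between batches. Cyp2f2 ranged from -0.54 to 0.15 in Ad-GFP against bleomycin and from -0.69 to 0.003 in Ad-ATP12A against Ad-GFP. Genes passing ranged from 1485 (without bleomycin b1r1) to 3695 in bleomycin against control, from 0 to 3 in Ad-GFP against bleomycin, from 0 to 2 in Ad-ATP12A against Ad-GFP and from 1615 (without bleomycin b1r2) to 4942 (without control b2r2) between batches. Same-numbered libraries of a batch did not deviate together (r across genes -0.158 to 0.212), so the numbers do not pair them. The replicate block gave Cyp2f2 -1.07 in bleomycin against control (adjusted p = 0.112) and 2636 genes passing there.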
